A study of Rattus norvegicus with 12 samples.

Results

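Fos, Jun, Junb, Egr1, Atf3 and Arc are genes of the immediate early and injury response, and their transcripts were followed in rat thoracic spinal cord after a cut injury. They were chosen by Ensembl identifier from a count table of 32883 genes (ENSRNOG00000008015 for Fos, ENSRNOG00000026293 for Jun, ENSRNOG00000042838 for Junb, ENSRNOG00000019422 for Egr1, ENSRNOG00000003745 for Atf3 and ENSRNOG00000043465 for Arc), and 6 of 6 identifiers were in the table. The symbols came with the identifiers in the choice of genes, and the reference tables used here did not pair them. All 12 libraries were made from the ninth thoracic segment (T9) of Sprague Dawley rats by CEL-Seq2, which counts tags from the 3' ends of transcripts. The study set 4 libraries of uninjured cord beside 4 of cord taken 5 days after a T9 hemisection, and 4 of cord taken 5 days after the same injury from animals given epidural electrical stimulation over L2 to S1. The groups are called uninjured, injured and stimulated. The measured segment was the injured one, not the stimulated one. The labels used here give no age or sex, no stimulation schedule, no time between the last stimulation and tissue collection, and no word on whether the other animals carried electrodes.

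Fos, Jun and Junb are subunits of AP-1, a transcription factor made of pairs of leucine zipper proteins. Genes of this kind are called immediate early because existing proteins can switch them on within minutes of a stimulus, with no need for new protein synthesis, and their transcripts are short lived. Atf3 is a related leucine zipper factor that injured neurons and stressed cells of many kinds produce. Egr1 is a zinc finger factor, and Arc is a synaptic protein rather than a transcription factor, whose transcript rises with synaptic activity in forebrain neurons. In spinal cord neurons Fos is widely used as a marker of recent activity, while glia, endothelium and blood cells can also make Fos, Jun and Egr1.

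Uninjured libraries held 254762 to 450114 counts, injured ones 399386 to 553986 and stimulated ones 204836 to 306186, so the totals of injured and stimulated libraries did not overlap. Levels are given as CPM, which are counts scaled by the total of their library. No count of the 6 genes exceeded 308. The highest count of any gene was 4059 to 4094 in every library, although library totals differed by up to 2.70-fold. Why the highest counts were so alike was not tested. The filter on low counts left 5285 genes and kept 5 of the 6, all but Arc. The filter asked for about 30.4 CPM in enough libraries, and Fos reached that in 2, Junb in 1 and Atf3 in 3 of the 4 uninjured libraries, against 4 of 4 in each of the other groups. These 3 genes thus entered the test through the groups where they were high. Cell type markers and the tissue label could not be checked, because 0 genes of the reference table carried an Ensembl identifier, and for the same reason the other immediate early genes are not counted here. In whole tissue, a change in the number of cells that make a transcript and a change in the RNA per cell cannot be told apart.

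The stretch of DNA before a gene's start can carry some of the sites through which such genes are switched on. A part of it is shown for the tested genes that RefSeq's promoter table held, Egr1 and Junb. The table had no entry for Fos, Jun, Atf3 or Arc. Each run is the 250 bases before the annotated start, 5' to 3', in build GRCr8, while the counts were made on Rnor_6.0. Capitals mark every match, on either strand, to the CArG box (the site of serum response factor), the core TGACG of the cyclic AMP response element, the CCAAT box and the TATA box TATAAA.
Egr1, chr18:26736828-26737077, plus strand: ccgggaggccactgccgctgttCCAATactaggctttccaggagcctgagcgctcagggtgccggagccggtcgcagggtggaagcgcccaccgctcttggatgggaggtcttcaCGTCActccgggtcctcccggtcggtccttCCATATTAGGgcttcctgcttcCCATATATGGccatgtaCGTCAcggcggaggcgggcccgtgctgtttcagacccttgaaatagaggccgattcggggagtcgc
Junb, chr19:40080876-40081125, plus strand: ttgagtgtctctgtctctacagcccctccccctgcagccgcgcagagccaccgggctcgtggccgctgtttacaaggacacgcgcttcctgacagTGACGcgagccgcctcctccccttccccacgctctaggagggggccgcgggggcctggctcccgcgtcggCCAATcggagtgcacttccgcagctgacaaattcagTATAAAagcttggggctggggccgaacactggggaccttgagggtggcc
The Egr1 window held 2 CArG boxes, at 105 to 96 and 83 to 74 bases before the start. It had 2 TGACG cores on the opposite strand, at 135 to 131 and 66 to 62 bases, 1 CCAAT box and 0 TATA boxes. The Junb window held 0 CArG boxes, 1 TGACG core, 1 CCAAT box and 1 TATA box. Over the same window of 33469 RefSeq genes, a CArG box was present in 1.5%, a TGACG core in 18.2%, a CCAAT box in 34.0% and TATAAA in 12.9%. The full element TGACGTCA, the AP-1 site TGANTCA, the EGR site GCGNGGGCG and the GC box GGGCGG had 0 matches in either window, against 1.59%, 6.34%, 4.29% and 30.5% of all genes. A match is a run of letters and was not tested as a site.

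The first comparison asked how these genes stood at the injured segment 5 days after hemisection. Fos, Jun, Junb and Atf3 rose, by 2.75-fold to 7.91-fold in the fitted estimates, and Egr1 was 2.56-fold higher without passing the threshold. That is 4 of 6 genes called, all higher, where 16.8% of all tested genes were called higher (edgeR's quasi-likelihood F-test with Benjamini-Hochberg adjustment over all tested genes, threshold 0.05). The median log2 fold change was 1.78 over the 5 tested genes and -0.0037 over all tested genes. With stimulation, 5 of the 6 genes were higher than in uninjured cord, where 18.3% of all tested genes were called higher. Arc was not tested in either comparison. Fos, Junb and Atf3 passed the filter through the groups where they were high, so these counts and the median are a description and not a test. No gene of the 6 was called between stimulated and injured cord. The 2 comparisons with uninjured cord share its 4 libraries, so their values are set side by side and not counted as separate evidence.

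**Figure D1:**
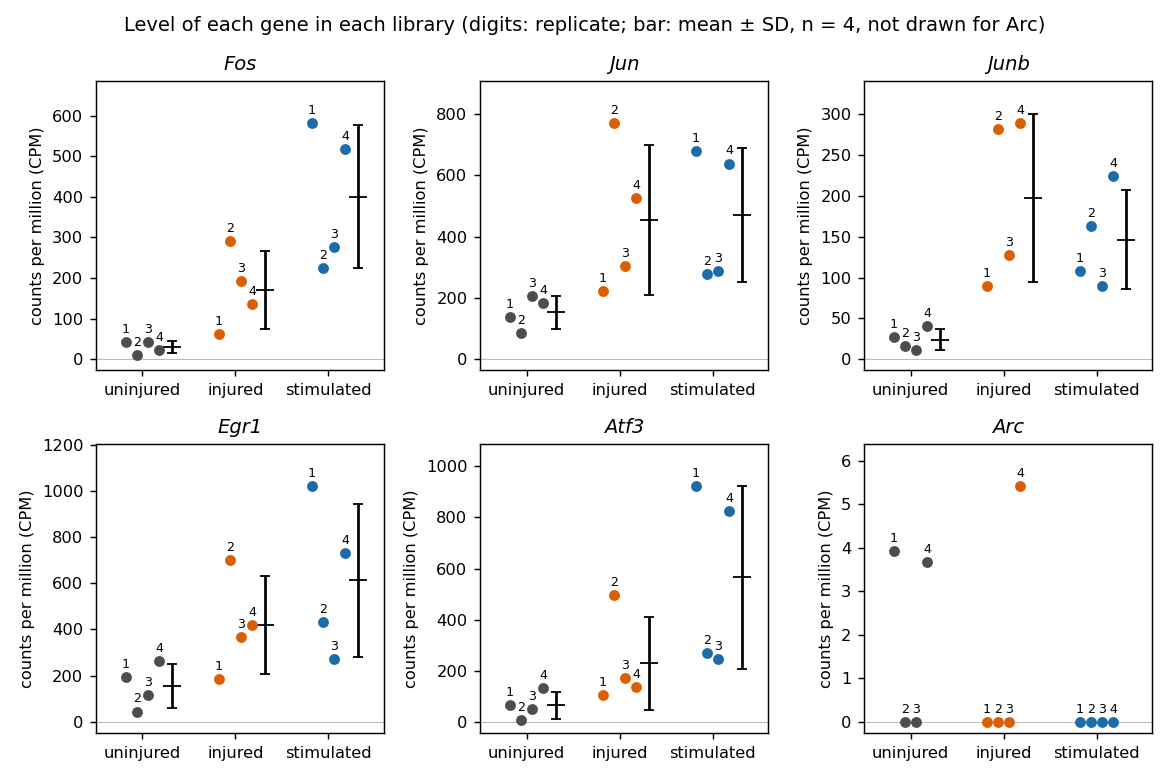
CPM (y axis, linear) of each of the 6 genes in the 12 libraries, by group (x axis), with replicate numbers above the points and the mean ± SD (n = 4) beside them, not drawn for Arc. The stimulated libraries of Fos, Jun, Junb, Egr1 and Atf3 all lie above the uninjured ones, and Arc is at 0 in 9 of 12 libraries.

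Fos, the AP-1 subunit most used as an activity marker, was counted 11, 5, 15 and 6 times in uninjured replicates 1 to 4. Its level there was 43.2, 11.1, 42.7 and 22.0 CPM. In injured replicates 1 to 4 it was 60.8, 290.0, 193 and 135 CPM, from 31 to 116 counts. Every injured library thus lay above every uninjured one, with injured replicate 1 the nearest to them. In stimulated replicates 1 to 4 Fos stood at 581, 225, 277 and 519 CPM, from 69 to 125 counts. Mean CPM (± SD, n = 4) was 29.7 ± 15.9 without injury, 169.7 ± 96.7 with injury and 400.5 ± 176 with injury and stimulation. Fos rose 5.34-fold in injured cord (log2 fold change 2.42, SE 0.53, edgeR adjusted p = 0.00219). It rose 14.0-fold in stimulated cord (log2 fold change 3.80, SE 0.54, edgeR adjusted p = 5.85e-05).

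Jun, a partner with which Fos binds DNA as AP-1, was at 137, 84.4, 205 and 183 CPM in uninjured replicates 1 to 4. It was at 223, 769.9, 305 and 525 CPM in injured replicates 1 to 4. The stimulated replicates stood at 679, 278, 287 and 639 CPM. Both injured groups thus spread widely, with injured replicate 2 the highest library and injured replicate 1 close to uninjured replicate 3. Mean CPM (± SD, n = 4) was 152 ± 53.4 without injury, 456 ± 245 with injury and 471 ± 218 with injury and stimulation. Jun rose 2.75-fold in injured cord (log2 fold change 1.46, SE 0.43, edgeR adjusted p = 0.0151). In stimulated cord it rose 3.16-fold (log2 fold change 1.66, SE 0.44, edgeR adjusted p = 0.00662). The call in injured cord was lost without injured replicate 2 (log2 fold change 1.05, adjusted p = 0.0688) and without uninjured replicate 2 (log2 fold change 1.23, adjusted p = 0.0541).

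Junb, a Jun relative that also pairs with Fos, was low in uninjured cord, with 7, 7, 4 and 11 counts in replicates 1 to 4. These are levels of 27.5, 15.6, 11.4 and 40.3 CPM. Injured replicates 1 to 4 had 90.2, 282, 128 and 289 CPM, from 46 to 160 counts. Stimulated replicates 1 to 4 had 107, 163, 90.0 and 224 CPM, from 22 to 54 counts. Each injured and each stimulated library lay above all uninjured ones, and the injured and stimulated ranges covered much the same levels. Junb had the largest fitted rise of the 5 tested genes in injured cord, 7.91-fold (log2 fold change 2.98, SE 0.47, edgeR adjusted p = 0.000171). In stimulated cord it rose 6.54-fold (log2 fold change 2.71, SE 0.48, edgeR adjusted p = 0.000332).

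Atf3, the stress and axon injury factor, had the largest SD relative to its mean among the 5 tested genes in each group. It had 17, 3, 18 and 36 counts in uninjured replicates 1 to 4, or 66.7, 6.66, 51.2 and 132 CPM. Injured replicates 1 to 4 stood at 106, 497, 173 and 137 CPM, so 3 of 4 were above the highest uninjured library. The stimulated replicates had 923, 271, 246 and 826 CPM, all above uninjured cord. That SD was 80.9% of the mean without injury, 79.5% with injury and 63.2% with stimulation. Atf3 rose 3.44-fold in injured cord, just past the threshold (log2 fold change 1.78, SE 0.66, edgeR adjusted p = 0.0475). Without injured replicate 2 the log2 fold change was 1.04 and the adjusted p 0.237, and without uninjured replicate 4 they were 2.37 and 0.0187. The call was also lost without uninjured replicate 1, 2 or 3 or injured replicate 3, with adjusted p of 0.0828, 0.11, 0.102 and 0.0642, and under 4 other settings of the analysis (edgeR adjusted p = 0.0501 to 0.0767). In stimulated cord Atf3 rose 9.46-fold (log2 fold change 3.24, SE 0.68, edgeR adjusted p = 0.00134). With limma-voom and sample weights the log2 fold change of Atf3 was larger, at 2.62 in injured and 4.02 in stimulated cord.

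Egr1, which responds to growth factors and to neuronal activity, was at 192, 44.4, 117 and 264 CPM in uninjured replicates 1 to 4. It was at 186, 699.9, 368 and 421 CPM in injured replicates 1 to 4. Injured replicate 1 lay inside the uninjured range and the other 3 lay above it. The stimulated replicates had 1020.3, 431, 269.9 and 730.3 CPM, all above uninjured cord, replicate 3 by a small margin. The difference between injured and uninjured cord did not pass the test (log2 fold change 1.36, SE 0.51, edgeR adjusted p = 0.0503). It passed without injured replicate 1 (1.57, adjusted p = 0.0246), without uninjured replicate 4 (1.70, adjusted p = 0.0244), and without stimulated replicate 1 or 3 (adjusted p = 0.0406 and 0.0437), and under 5 other settings of the analysis (adjusted p = 0.000911 to 0.0412). Without injured replicate 2 it fell to 0.96 (adjusted p = 0.180). In stimulated cord Egr1 rose 4.17-fold (log2 fold change 2.06, SE 0.52, edgeR adjusted p = 0.00509).

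Arc was close to undetected. It had 1, 0, 0 and 1 counts in uninjured replicates 1 to 4, 0, 0, 0 and 3 in injured replicates 1 to 4, and 0 in each of the 4 stimulated libraries. Summed over libraries this was 2 of 1329217 counts without injury, 3 of 1863661 with injury and 0 of 1040994 with stimulation. A count of 0 in the stimulated group allows a level of up to 2.88 CPM (3 counts over the group, counting error only). No fold change is given, since each group was at or under 3 counts. An exact two-sided permutation of CPM gave p = 1.0 for injured against uninjured cord, p = 1.0 for stimulated against injured cord and p = 0.429 for stimulated against uninjured cord, without adjustment. In the edgeR fit with no filter the adjusted p was 1 for injured against uninjured cord, 0.645 for stimulated against injured cord and 0.46 for stimulated against uninjured cord. No change of Arc was shown, and a change between levels this low could not be judged at this depth. The limit of 2.88 CPM lies far below the levels of the tested genes in stimulated cord. The lowest of those was 90.0 CPM, for Junb in stimulated replicate 3.

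Of the 5 tested genes, 3 had injured libraries that all lay above the uninjured ones (Fos, Jun and Junb), where 18.8% of all tested genes did so. After scaling by TMM factors Jun overlapped, with 210.2 CPM in injured replicate 1 and 219.9 in uninjured replicate 3, and 2 of 5 did so. All 5 had stimulated libraries that lay above the uninjured ones on either scale. In CPM without TMM factors 15.4% of all tested genes did so. Shares of all tested genes after scaling by TMM factors were not computed. Since Fos, Junb and Atf3 passed the filter through the groups where they were high, these counts too are a description and not a test.

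The second comparison took stimulated against injured cord, as a test of whether stimulation was accompanied by more activity-driven expression. Fos, Atf3 and Egr1 were higher on average in stimulated cord, Jun was near equal and Junb was lower, and none passed the test. Fos had a log2 fold change of 1.39 (SE 0.45, unadjusted p = 0.00697, edgeR adjusted p = 0.486), a 2.62-fold difference. Atf3 had a log2 fold change of 1.46 (SE 0.61, unadjusted p = 0.0286, edgeR adjusted p = 0.530), a 2.75-fold difference. Among all 5285 genes tested, 27 had a larger log2 fold change than Fos and 22 a larger one than Atf3. For Egr1, Jun and Junb these numbers were 370, 1763 and 3775. Egr1 followed with 0.71 (SE 0.49, edgeR adjusted p = 0.642). Jun had 0.20 (SE 0.41, edgeR adjusted p = 0.891) and Junb -0.27 (SE 0.39, edgeR adjusted p = 0.834). The TMM factors of the 2 groups did not overlap, at 1.016 to 1.152 in injured and 0.925 to 0.991 in stimulated libraries. With totals only, the log2 fold changes were 1.24 for Fos, 1.31 for Atf3, 0.55 for Egr1, 0.04 for Jun and -0.43 for Junb. Median-ratio factors gave 1.41 for Fos.

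**Figure D2:**
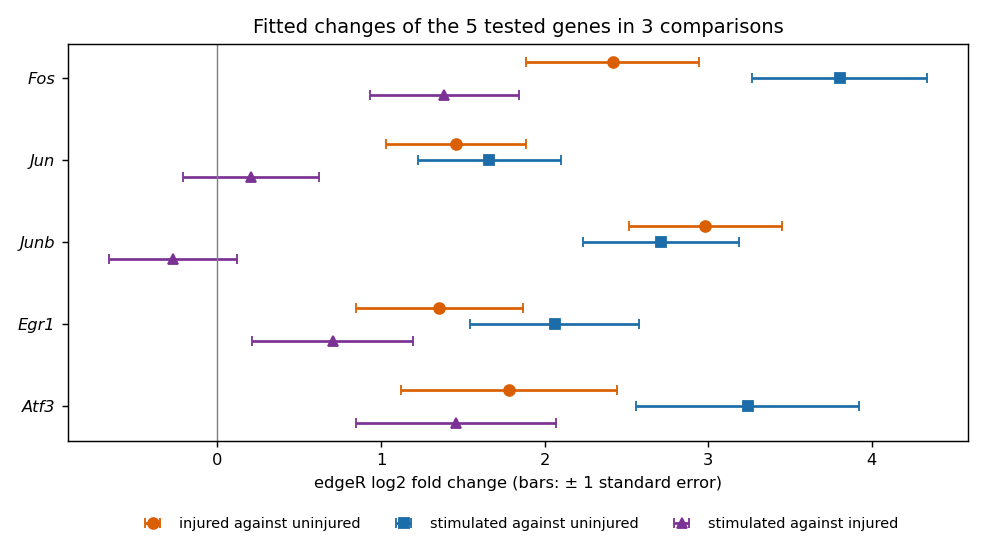
EdgeR log2 fold changes (x axis) of the 5 tested genes (y axis) in 3 comparisons, with bars of 1 standard error on each side. Against uninjured cord the points lie between 1.36 and 3.80, and between stimulated and injured cord they lie between -0.27 for Junb and 1.46 for Atf3.

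In stimulated against injured cord 0 of 6 genes were called, where 0.00% of all tested genes were called. At unadjusted p under 0.05 Fos and Atf3 passed, as did 9.29% of tested genes, and DESeq2 and limma-voom with sample weights called 0 of the 6. Among all genes, DESeq2 called 7 of 1645, limma-voom 0 of 5285 and edgeR with no filter on low counts 28 of 18333. Leaving out stimulated replicate 3 gave 1 of 5848. The lowest adjusted p for Fos over 21 other settings was 0.0648 (no filter on low counts) and the highest 0.827 (without injured replicate 1). Intervals at 95% for this log2 fold change, from limma-voom and not adjusted for the number of genes, were 0.54 to 2.45 for Fos and 0.13 to 2.85 for Atf3. They were -0.41 to 1.77 for Egr1, -0.64 to 1.12 for Jun and -0.997 to 0.62 for Junb. A 2-fold higher level in stimulated cord thus lay inside the interval of Fos, Atf3, Egr1 and Jun, and the interval of Junb ended just short of a 2-fold lower level.

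The libraries overlapped in all 5 genes. For Fos, 2 of 4 stimulated libraries lay above the highest injured one, as they did for Egr1 and Atf3, while no stimulated library did for Jun or Junb. After scaling by TMM factors it was 3 of 4 for Fos, with stimulated replicate 3 at 287 and injured replicate 2 at 281 CPM, and the number for the other genes did not change. For reference, 1.19% of all tested genes had stimulated libraries wholly above the injured ones in CPM without TMM factors. The raw counts of Fos were 69 to 125 in stimulated and 31 to 116 in injured cord, although stimulated totals were lower. Leaving out injured replicate 1, the log2 fold change was 1.09 for Fos and 1.21 for Atf3, and leaving out injured replicate 2 it was 1.77 and 2.17. For Jun it went from 0.20 to -0.037 without injured replicate 1 and to -0.050 without stimulated replicate 1, so its direction was not stable.

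Several of the genes had their highest or lowest level in the same library of a group, though not all in every group. Injured replicate 1 had the lowest level of its group in 5 of 5 tested genes, and injured replicate 2 the highest in 4 (Fos, Jun, Egr1 and Atf3). Stimulated replicate 1 was highest in the same 4 genes, with stimulated replicate 4 next in each, while Junb was highest in replicate 4. Junb was second lowest in stimulated replicate 1. Uninjured replicate 2 was lowest in Fos, Jun, Egr1 and Atf3, and Junb was lowest in uninjured replicate 3, where Jun was highest. The highest uninjured level lay in replicate 1 for Fos and in replicate 4 for Junb, Egr1 and Atf3. Library totals moved with this in part: stimulated replicates 1 and 4 had the lowest totals of their group (204836 and 240992), and uninjured replicate 2 had the highest of its group (450114). Injured replicate 1 had a total of 510260, between those of the other injured libraries. In stimulated replicates 1 and 4 the raw counts of Fos, Jun, Egr1 and Atf3 were also the highest of the group, and in uninjured replicate 2 those of Fos, Egr1 and Atf3 were the lowest. The part of depth in this spread was not tested.

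**Figure D3:**
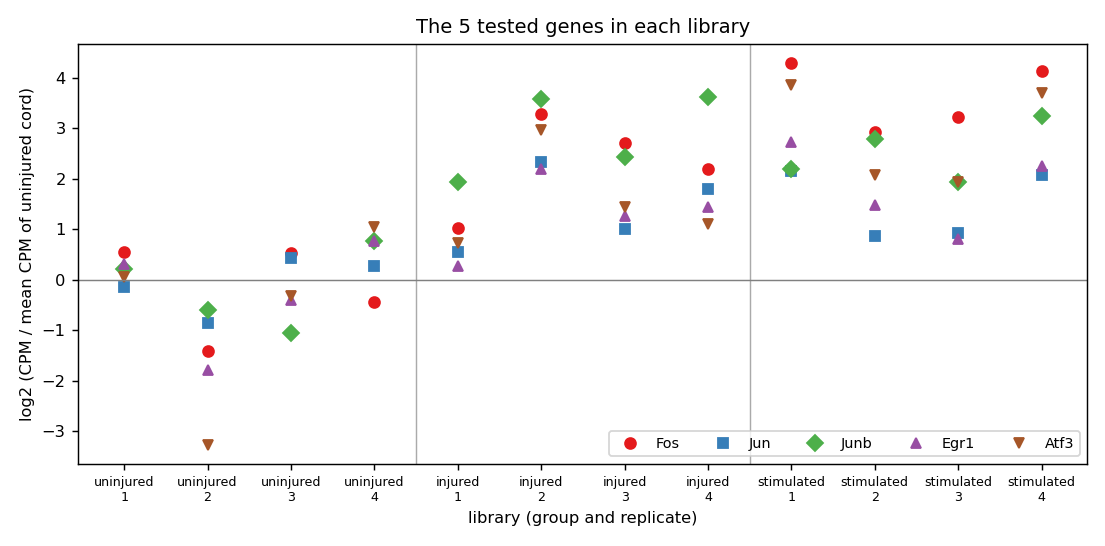
Log2 of CPM over the mean CPM of uninjured cord (y axis) for the 5 tested genes in each library (x axis, group and replicate). Injured replicate 1 is the lowest injured library in 5 of 5 genes, and stimulated replicates 1 and 4 are the highest stimulated libraries for Fos, Jun, Egr1 and Atf3.

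The balance between the genes within a library does not depend on the library's total or scaling, and it was examined after the levels had been seen. Counts of Fos per count of Jun were 0.314, 0.132, 0.208 and 0.12 in uninjured replicates 1 to 4. They were 0.272, 0.377, 0.631 and 0.258 in injured replicates 1 to 4. In stimulated replicates 1 to 4 they were 0.856, 0.812, 0.964 and 0.812. The stimulated ratios lay above all injured ones and close to each other, although the Fos and Jun levels of the same libraries spread by 2.58-fold and 2.44-fold. The mean log2 ratio was higher by 1.26 in stimulated than in injured cord, and the exact two-sided permutation test gave p = 0.0286, its smallest possible value with 4 libraries a group. The difference was 1.10 to 1.53 with any 1 of the 8 libraries left out.

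Jun per count of Atf3 moved the other way. The ratio was 2.06, 12.7, 4 and 1.39 in uninjured, 2.11, 1.55, 1.77 and 3.83 in injured and 0.735, 1.02, 1.17 and 0.774 in stimulated replicates 1 to 4. The stimulated ratios lay below all injured ones, with a mean log2 difference of -1.26 (exact two-sided permutation p = 0.0286), which was -1.42 to -0.98 with 1 library left out. Fos per Atf3 did not separate the groups, at 0.574 to 1.12 with injury and 0.628 to 1.13 with stimulation (exact two-sided permutation p = 1.0). Of the 10 pairs among the 5 genes, 2 had ratios that did not overlap between stimulated and injured cord. After adjustment over the 10 pairs the smallest p was 0.0816. Pairs with overlapping ratios shared it: Fos per Junb (mean log2 difference 1.69), Junb per Atf3 (-1.69), Junb per Egr1 (-0.88), Fos per Egr1 (0.81) and Egr1 per Atf3 (-0.81). Each of these had an exact two-sided permutation p of 0.0571. Jun per Junb (0.43) and Jun per Egr1 (-0.44) had p of 0.371 and 0.114 in the same test. The pairs share genes and libraries, so they are not independent. How often pairs of other genes separate in this way was not computed, and the ratios were taken after the levels had been seen. A ratio shows that 2 genes differed in their change, not which of them moved.

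**Figure D4:**
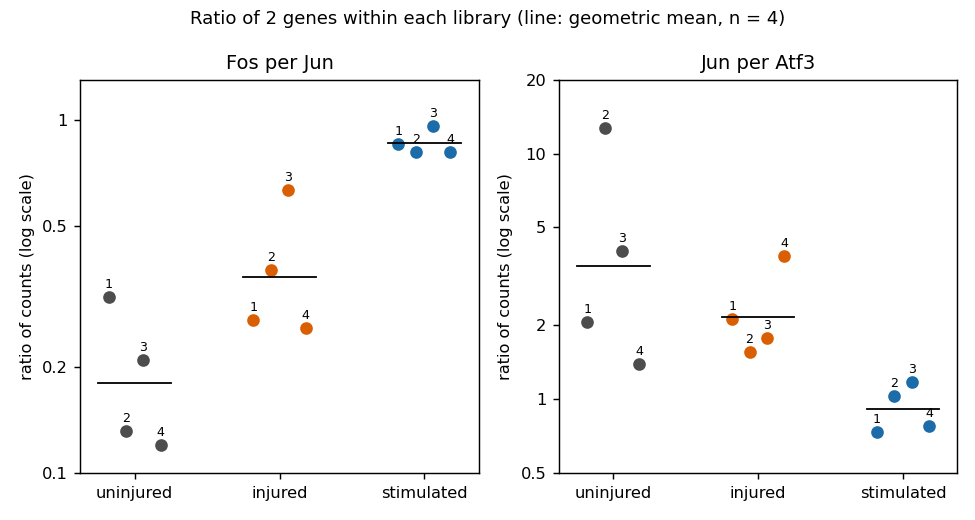
Counts of Fos per count of Jun (left) and of Jun per count of Atf3 (right) in each library, on log scales, by group, with replicate numbers and the geometric mean as a line. Stimulated ratios of Fos to Jun (0.812 to 0.964) lie above the injured ones (0.258 to 0.631), and those of Jun to Atf3 (0.735 to 1.17) lie below them (1.55 to 3.83).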

How the data were processed

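The deposited file holds raw counts, whole numbers for each Ensembl gene in each library. Per the labels' protocols, RNA was column-purified from flash-frozen cord and sequenced by CEL-Seq2. HISAT2 2.0.4, HTSeq 0.6.0 and build Rnor_6.0 are named in the submitters' processing notes. For annotation, strand setting and collapsing of molecular identifiers the steps are not stated in the labels, so overlapping or antisense transcripts may be counted with these genes. Groups came from the labels, which do not tie libraries to animals: the p-values reflect how far these libraries spread, which may be technical. Libraries of a group differed by more than sampling noise (chi-square of 2.95 to 10.0 for each degree of freedom).

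Counts were analysed with edgeR 4.0.16 in R 4.3.3. Genes kept by filterByExpr were scaled with TMM factors, and 1 robust quasi-likelihood model of group was fitted to the 12 libraries (9 residual degrees of freedom). Standard errors are the log2 fold change over the square root of F. Alternatives were other scalings and filters, the 2 groups alone, a replicate block, DESeq2 1.42.0, limma 3.58.1 (voom), and leaving out each library. Library totals over all genes, and the alternatives for Arc, were added after seeing the data. Tests were tried on simulated data. Exact permutation used scipy 1.17.1 over 70 arrangements.

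All 6 genes are named whatever their values. They, and the lists first planned, were chosen with earlier results of these data known. The lists of other immediate early genes, injury factors, cell type markers and most similar genes were not run, because identifiers were not paired with symbols here.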

Additional observations from a re-analysis of the deposited data

Results flagged for a closer look

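Within each group of 4 libraries, the highest or lowest level was marked if it stood off from the next one by more, relative to the whole range, than Dixon's 95% critical value for 4 samples. This was so in 2 of 17 groups examined, where chance gives about 0.85. Atf3 in injured replicate 2 was at 497 CPM (199 counts), with the other injured libraries at 106 to 173 CPM and a gap of 0.8291 of the range, barely past the limit. Arc in injured replicate 4 was at 5.42 CPM from 3 counts, with the other injured libraries at 0. A group with counts in 1 library alone gives that gap whatever the data.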

How the results depend on the processing

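The count of genes called in injured against uninjured cord was 4, and 2 to 5 with 1 library left out. Leaving out uninjured replicate 2 gave 2, as did leaving out injured replicate 2, and the cause was not tested. Other settings gave 3 to 5. Fos and Junb were called under each of the 21 alternatives, Jun lost its call under 2, Atf3 lost it under 9 and Egr1 gained one under 9, all with the direction kept. Outside the libraries left out, Atf3 lost it with median-ratio factors (adjusted p = 0.0501), no filter (0.0684), a mean count of at least 20 (0.0563) and the replicate block (0.0767). Egr1 passed with total counts (0.0349), no filter (0.000911), only the 2 groups (0.0412), the replicate block (0.0396) and limma-voom (0.0135). For stimulated against uninjured cord each alternative called 5 genes, and for stimulated against injured cord each called 0. Jun in stimulated against injured cord turned to -0.037 without injured replicate 1 and -0.050 without stimulated replicate 1, and was at most 0.58 (without injured replicate 2). The difference of Arc in mean CPM, injured minus uninjured, was -0.54 and ranged from -1.90 to 0.132 with 1 library left out (0.132 without uninjured replicate 1, 0.0454 without uninjured replicate 4). With 1 library left out, Arc in stimulated cord differed by -1.81 to 0 CPM from injured and by -2.53 to -1.22 CPM from uninjured cord. Same-numbered libraries did not deviate together throughout (correlations -0.344 to 0.429, above 0.1 in 7 of 12 pairs, own number best in 4 of 12), so the replicate numbers were not taken as pairs. Correlations were 0.276 to 0.429 for replicates 3 and 4. For replicates 1 and 2 they were -0.344 to -0.208 against uninjured cord, and 0.066 and 0.116 between stimulated and injured cord. A structure shared by some numbers was not tested. The replicate block called 4 genes between injured and uninjured, 0 between stimulated and injured and 5 between stimulated and uninjured cord. Depth limits Fos, Junb and Atf3 in uninjured cord, where they had 3 to 36 counts per library, and Arc everywhere.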
